A study of Homo sapiens with 13 samples.

Results

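The checkpoint and p53 genes described here are CHEK1, CHEK2, ATM, ATR, WEE1, MDM2, CDKN1A, GADD45A and GADD45G. They were taken by name, as every non-control probe that the array design assigns to one of these symbols. This gave 9 of 25940 gene names, measured by 16 of 34127 probes and 34 of 43118 spots on each array. CHEK1, WEE1, CDKN1A and GADD45A had 1 probe each, CHEK2, ATR and GADD45G had 2, and ATM and MDM2 had 3.

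The study exposed CCRF-CEM cells, an established human line of T cell leukemia, to FK866, an inhibitor of NAMPT, the enzyme that makes NAD+ from nicotinamide. Total RNA of 4 groups was hybridized to 13 one-colour Agilent arrays. Parental cells (CEM PA) were given DMSO (mock, 3 arrays) or 5 nM FK866 (2 arrays) for 48 h. Resistant cells (CEM RES), a population selected in rising FK866 and resistant to 100 nM, were given the same DMSO or 5 nM FK866 for 48 h on 4 arrays each. Per the methods the resistant subline was kept in 100 nM FK866, so that its mock arrays do not stand for cells that never met the drug, and its FK866 arrays had a dose below that of routine culture. Whether FK866 was withdrawn before the DMSO treatment was not stated, so a small difference between treatments in CEM RES cannot be told apart from drug carried into its mock cells. The labels number the arrays of a group as biological replicates without naming separate cultures, so the spread between them may be partly technical. Bulk RNA does not separate a change per cell from a change in which cells were present.

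DNA damage and stalled replication forks activate the kinases ATM and ATR, which pass the signal to the effector kinases CHEK2 and CHEK1, and these together with WEE1 restrain the cyclin-dependent kinases that drive cells into S phase and mitosis. The same damage signal stabilizes p53, which switches on CDKN1A, GADD45A and MDM2, and MDM2, a ubiquitin ligase, in turn removes p53. Most of this control acts through phosphorylation and protein stability, which an mRNA array does not measure. CCRF-CEM is known to carry mutated p53.

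Several probes disagreed within a gene, and their sequences show that they read different stretches of RNA. CHEK1 (60 bases, chr11:125525158-125525217 on hg19, plus strand) and both CHEK2 probes (chr22:29085145-29090020, which crosses an exon junction, and chr22:29121275-29121334, minus strand) are shown because CHEK1 changed with FK866 and the CHEK2 probes differed in how they responded. The ATM probes lie at chr11:108099942-108100001 (A_33_P3589722), chr11:108166338-108166397 (A_33_P3218410) and chr11:108236085-108236144 (A_23_P35916). All are on the plus strand, and they are shown because they differ in how the lines compare. The middle one, which the design assigns to an Ensembl transcript and not to the RefSeq mRNA of the others, is shown by its last 23 bases, in capitals because most of them are T. MDM2 A_33_P3361707 (chr12:69233570-69233629, plus strand) is shown as the MDM2 probe whose difference between mock-treated lines had the smallest standard error. No 20-base stretch of any of the 16 probes recurs in a probe of another gene name on the array.
CHEK1 A_33_P3349536: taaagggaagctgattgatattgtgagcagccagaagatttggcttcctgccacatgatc
CHEK2 A_23_P109452: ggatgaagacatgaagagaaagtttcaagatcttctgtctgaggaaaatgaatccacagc
CHEK2 A_33_P3386760: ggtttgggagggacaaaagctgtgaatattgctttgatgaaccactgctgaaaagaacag
ATM A_33_P3589722: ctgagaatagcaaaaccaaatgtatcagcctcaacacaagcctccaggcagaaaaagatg
ATM A_33_P3218410, last 23 bases: TTTTTCATTTCTTTTTCTTTTTT
ATM A_23_P35916: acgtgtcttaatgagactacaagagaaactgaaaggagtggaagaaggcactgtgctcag
MDM2 A_33_P3361707: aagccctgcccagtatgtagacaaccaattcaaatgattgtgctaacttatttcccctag

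Signals are given as log2 intensities after quantile normalization over the 13 arrays, each probe is compared only with itself, and differences are log2 fold changes from one limma model of the 4 groups, with p adjusted by the Benjamini-Hochberg method over 22751 tested probes (SE below is the standard error of a difference). Tests were limited to probes whose signal cleared background, by the scanner software, on all arrays of 1 group or more, which 14 of the 16 probes did, covering 8 of the 9 genes. CDKN1A A_24_P89457 and GADD45G A_33_P3252394 did not. The thresholds used were the one of the study (unadjusted p under 0.05 and an absolute log2 fold change over 0.75, called the double threshold here) and an adjusted p under 0.05. Between 26457 and 33239 spots per array were well above background and none was saturated. CEM PA arrays were scanned in sessions 1 and 2, each with both treatments, and all CEM RES arrays in session 3, so line and scan session cannot be told apart. Of 12 T cell leukemia markers, 12 were well above background in every group. Of 4 myeloid markers on the array 1 was (CD14). Of 6 epithelial and breast line markers 3 or 4 were, depending on the group, with a mean log2 signal from 5.36 to 5.96 over all arrays. The mean log2 signal of 5 B cell markers, of which 3 or 4 were well above background, ranged from 6.58 to 7.14 over CEM PA arrays and from 5.52 to 6.07 over CEM RES arrays, and its part in the differences between lines was not tested.

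**Figure D1:**
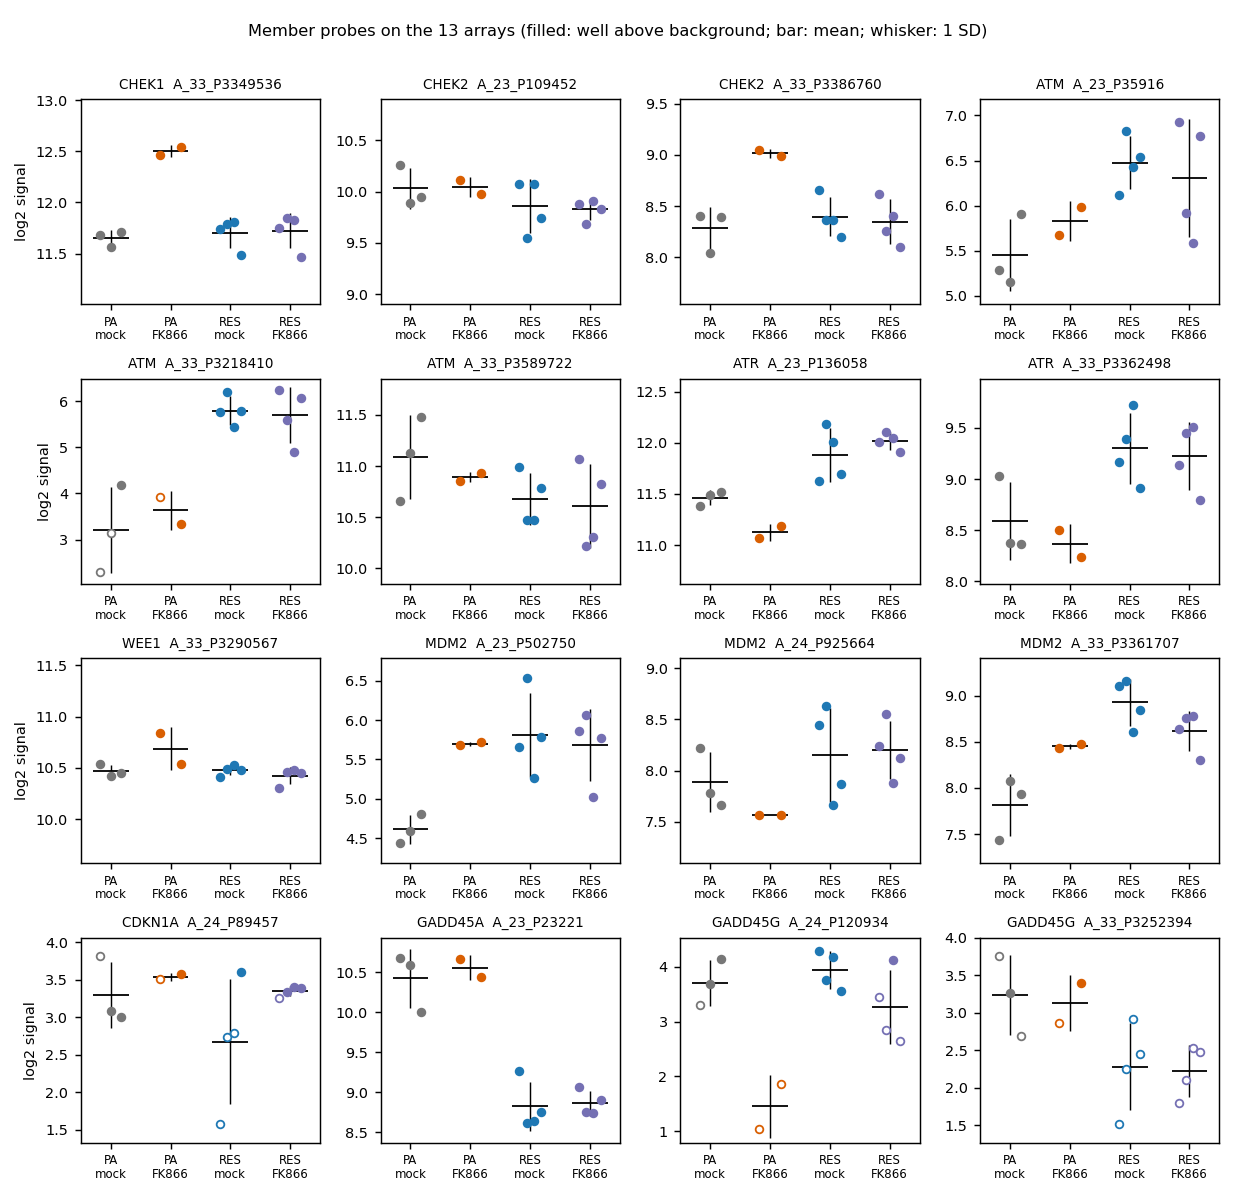
Log2 signal (vertical axis) of the 16 probes in the 4 groups, 1 point per array, filled where the probe was well above background, with the group mean (bar) and 1 SD (whisker). CHEK1 stands apart in CEM PA with FK866, GADD45A is lower on all 8 CEM RES arrays, and CDKN1A lies near background in every group.

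In CEM PA, FK866 raised CHEK1, the effector kinase of the replication checkpoint, by 1.80-fold. A dim GADD45G probe fell below background. MDM2 and CHEK2 had probes with higher signal that did not pass the adjustment, while ATM, ATR, WEE1 and GADD45A had none that passed either threshold. Of the 14 tested probes 3 passed the double threshold (2 higher, 1 lower), against 6.69% of all tested probes (3.87% higher, 2.82% lower). An adjusted p under 0.05 was reached by 2 of 14 (1 higher, 1 lower), against 1.53% (1.11% higher, 0.418% lower), and an unadjusted p under 0.05 by 5 of 14, against 14.4%. For 8 of 14 the FK866 and mock arrays did not overlap, against 34.8%. The median log2 fold change of the 14 probes was 0.17, and that of all tested probes -0.003.

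CHEK1 had a log2 signal of 12.46 and 12.54 in CEM PA with FK866 and of 11.68, 11.56 and 11.71 in mock-treated CEM PA. Both FK866 arrays lay above all 3 mock arrays. The group means were 12.50 ± 0.06 (SD, n = 2) and 11.65 ± 0.08 (SD, n = 3), which differ by a log2 fold change of 0.85 (95% interval 0.49 to 1.21, SE 0.17, limma adjusted p = 0.0286). Within scan session 1 the difference was 0.78 (1 array against 1) and within session 2 it was 0.91 (1 against 2). Over 26 processing alternatives the change stayed between 0.78 and 0.94, and its adjusted p ranged from 0.00341 to 0.556. It did not pass with only the groups compared (limma adjusted p = 0.131) or no filter on dim probes (0.0552). With slide as a block, which set the top of that range, the change was 0.78 and did not pass. Only slide 1 held both CEM PA treatments, so that fit compares 1 array against 1 and does not correct all CEM PA arrays for slide. The call was lost without either FK866 array (adjusted p = 0.162 and 0.222) and without mock replicate 1 or 2 (0.0549 and 0.0922).

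In CEM RES the same probe read 11.75, 11.85, 11.83 and 11.47 with FK866 and 11.74, 11.79, 11.81 and 11.49 in mock. The groups overlapped, with a log2 fold change of 0.02 (95% interval -0.26 to 0.30). By group mean the order was CEM PA with FK866 (12.50), CEM RES with FK866 (11.73), CEM RES mock (11.71) and CEM PA mock (11.65), and the last 3 did not differ beyond the spread of their arrays. The difference between the responses of the lines was -0.83 (SE 0.21, limma adjusted p = 0.129), short of the threshold. With the replicate number as a block, which pairs mock and FK866 arrays, it was -0.86 with an adjusted p of 0.0454.

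CHEK2, the effector kinase of the ATM branch, gave different readings from its probes. A_33_P3386760 read 9.05 and 8.98 in CEM PA with FK866 against 8.41, 8.04 and 8.40 in mock, with no overlap. Its log2 fold change of 0.73 (SE 0.20, adjusted p = 0.0937) lay just under the limit of 0.75, and it was 0.64 and 0.77 within the scan sessions. With the replicate block it was 0.79 (adjusted p = 0.0295). A_23_P109452, nearer the 3′ end of the mRNA, read 10.11 and 9.98 against 10.26, 9.89 and 9.94, a log2 fold change of 0.01 (95% interval -0.41 to 0.44). The correlation of the probes over the 13 arrays was 0.44. In CEM RES both CHEK2 probes overlapped between treatments, with log2 fold changes of -0.05 and -0.03.

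MDM2 was read by 3 probes on one stretch of the transcript without an intron between them, since their distances on the mRNA and on the genome are equal. A_23_P502750 starts 252 bases and A_24_P925664 starts 5321 bases beyond A_33_P3361707 toward the 3′ end. The A_33_P3361707 probe read 8.43 and 8.47 in CEM PA with FK866 and 7.44, 8.07 and 7.93 in mock. A_23_P502750 read 5.68 and 5.72 against 4.43, 4.59 and 4.80. Both probes were higher on each FK866 array than on any mock array. A_24_P925664 went the other way, with 7.56 and 7.56 against 8.22, 7.78 and 7.67.

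The MDM2 log2 fold changes in CEM PA were 0.64 (A_33_P3361707, adjusted p = 0.221), 1.09 (A_23_P502750, SE 0.35, adjusted p = 0.156) and -0.33 (A_24_P925664, adjusted p = 0.699). A_23_P502750 thus passed the double threshold and none passed the adjustment, except A_23_P502750 with the replicate block (1.19, adjusted p = 0.0267) or array weights (1.09, adjusted p = 0.0251). Over 25 processing alternatives the change of A_23_P502750 ranged from 0.41 to 1.25. This probe is printed 10 times on each array, and the SD of its log2 intensity over those spots had a median of 0.133 and reached 0.224, which measures the spread within an array and not between samples. In CEM RES the 3 changes were -0.31, -0.13 and 0.05, and mock and FK866 arrays overlapped for each probe. The difference between the lines' responses was -0.94, -1.22 and 0.37 (adjusted p = 0.217, 0.298 and 0.740), and for A_23_P502750 it was -1.32 with the replicate block (adjusted p = 0.0454). Over 24 alternatives that difference for A_23_P502750 ranged from -1.40 to -0.47.

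**Figure D2:**
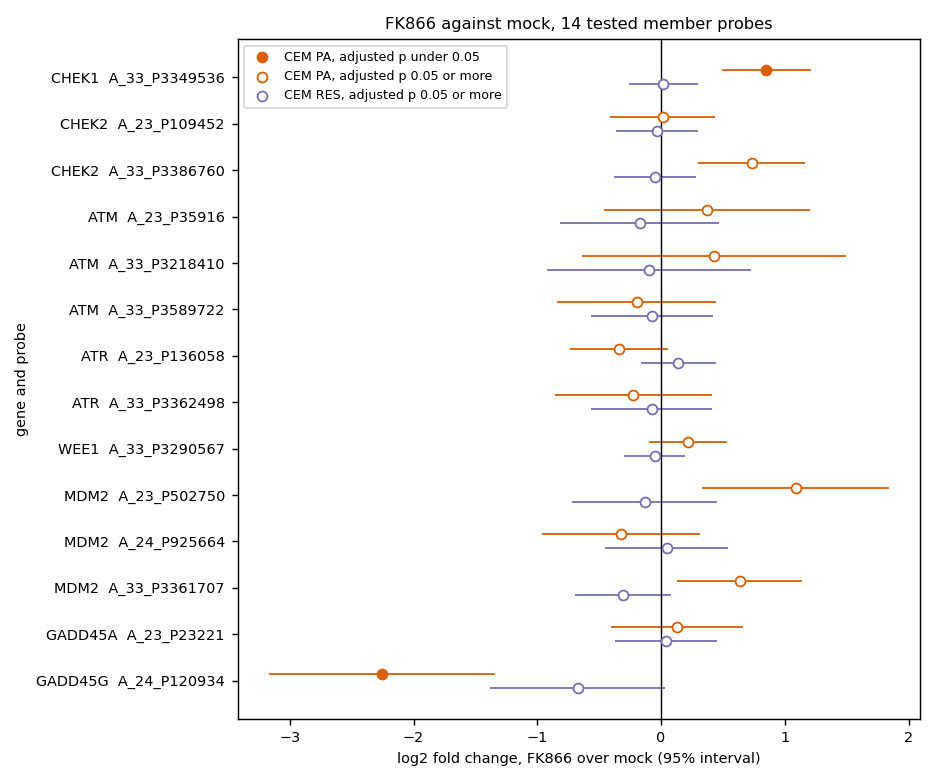
Log2 fold change of FK866 over mock (horizontal axis, 95% interval) for the 14 tested probes in CEM PA (orange) and CEM RES (purple), filled where the adjusted p was under 0.05. Only CHEK1 and GADD45G A_24_P120934 in CEM PA are filled, and each CEM RES value other than GADD45G lies within 0.31 of 0.

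The upstream kinases moved little with FK866. ATR, the sensor kinase of stalled forks, read 11.07 and 11.19 in CEM PA with FK866 against 11.38, 11.49 and 11.52 in mock (A_23_P136058), lower on both FK866 arrays, with a log2 fold change of -0.34 (adjusted p = 0.436). Its second probe overlapped between treatments (-0.22, adjusted p = 0.813). The 3 probes of ATM, the sensor kinase of double-strand breaks, changed by 0.37, 0.43 and -0.20, and each overlapped between treatments. WEE1, the kinase that holds CDK1 inactive, read 10.84 and 10.54 against 10.54, 10.42 and 10.45, a log2 fold change of 0.22 (adjusted p = 0.563). In CEM RES the changes of these 6 probes lay between -0.17 (ATM A_23_P35916) and 0.14 (ATR A_23_P136058), and treatments overlapped for each.

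Among p53 output genes, GADD45A, which binds PCNA and slows the cell cycle after damage, read 10.66 and 10.44 in CEM PA with FK866 and 10.68, 10.59 and 10.00 in mock. The groups overlapped, with a log2 fold change of 0.13 (95% interval -0.40 to 0.66). CDKN1A, the p21 inhibitor of cyclin-dependent kinases, was near background on every array, with log2 signals of 3.50 and 3.57 in CEM PA with FK866 and of 3.81, 3.08 and 3.00 in mock. It read 3.26, 3.34, 3.40 and 3.40 in CEM RES with FK866 and 1.58, 2.74, 2.79 and 3.60 in CEM RES mock. It was well above background on 1 of 2, 2 of 3, 3 of 4 and 1 of 4 arrays of these groups. No test was made, since it did not clear background on all arrays of any group. The treatments overlapped in both lines.

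GADD45G, a GADD45 family member of the same stress response, was dim. A_24_P120934 read 1.05 and 1.86 in CEM PA with FK866, where it was well above background on 0 of 2 arrays, and 3.31, 3.68 and 4.15 in mock, where it was on 2 of 3. Both FK866 arrays lay below all mock arrays. The fitted log2 fold change was -2.26 (adjusted p = 0.0234). Yet with the FK866 signals raised to the dimmest signal well above background, the FK866 mean was only 1.44-fold lower than that of mock. This is no lower bound, because mock replicate 1 (3.31) was not well above background either and was left as read. The probe was tested only because it cleared background on 4 of 4 arrays of CEM RES mock. In CEM RES it read 3.44, 2.85, 4.13 and 2.64 with FK866 and 4.28, 3.76, 4.18 and 3.55 in mock, which overlap, with a log2 fold change of -0.68 (adjusted p = 0.938). The call in CEM PA was lost with 75th percentile scaling (limma adjusted p = 0.103), normexp background correction (log2 fold change -0.19, adjusted p = 0.541) or only the groups compared (0.114). It was also lost without either FK866 array (log2 fold change -1.85 and -2.66) and without mock replicate 2 or 3 (adjusted p = 0.0726 and 0.0613). With slide as a block, 1 array against 1, the change was -2.26 and did not pass. The other probe, A_33_P3252394, was well above background on 2 of 13 arrays and its signals overlapped between treatments in both lines.

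In CEM RES none of the 14 probes passed either threshold with 5 nM FK866, nor did any reach an unadjusted p under 0.05. Over all probes limma called 0% at an adjusted p under 0.05, 1.3% at the double threshold (0.694% higher, 0.602% lower) and 5.15% at an unadjusted p under 0.05. No member probe separated the 4 FK866 from the 4 mock arrays, against 2.91% of all tested probes. The median log2 fold change was -0.06 for the 14 probes and -0.02 for all. For the difference between the responses of the lines 5 of 14 probes passed the double threshold (1 higher, 4 lower in CEM RES), against 8.03% of all (3.43% higher, 4.6% lower), and 0 passed the adjustment in limma, against 0.413% (0.0264% higher, 0.387% lower). The 1 higher was GADD45G A_24_P120934, well above background with FK866 on 0 of 2 CEM PA and 1 of 4 CEM RES arrays, so no direction is read from it. The lower ones were CHEK1, CHEK2 A_33_P3386760 and MDM2 A_33_P3361707 and A_23_P502750, the MDM2 probes lying on one stretch of its mRNA. All 5 probes had an unadjusted p under 0.05, reached by 12.1% of all probes. With normexp 1 and with the replicate block 2 passed the adjustment. Apart from those fits, no member was shown to respond differently in the lines.

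**Figure D3:**
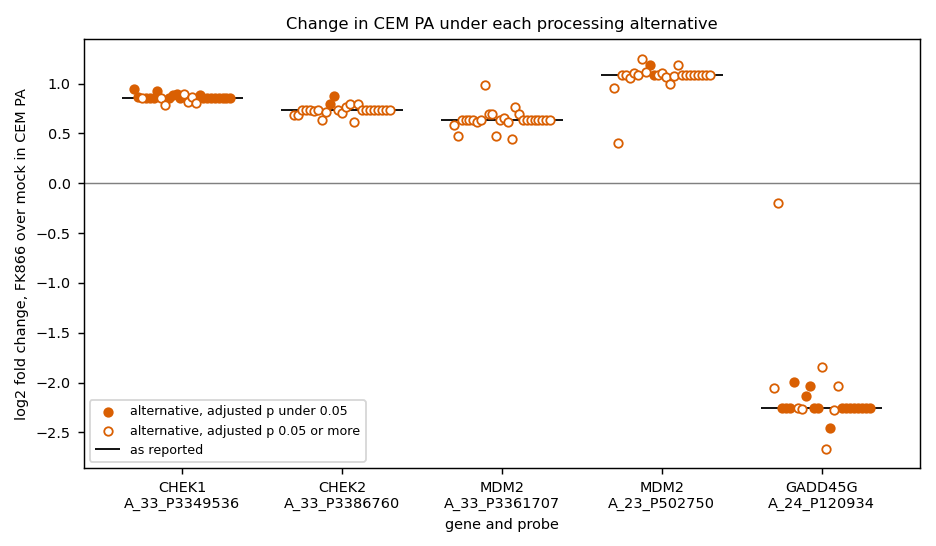
Log2 fold change of FK866 over mock in CEM PA (vertical axis) for 5 probes under each processing alternative (points, filled where the adjusted p was under 0.05) and as reported (bar). The CHEK1 points span 0.78 to 0.94 and are mostly filled, the CHEK2 and MDM2 points are mostly open, and GADD45G moves from about -2.26 to -0.19 with normexp.

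Between the lines the members differed more, as did the array as a whole. Mock-treated CEM RES had 3.03-fold lower GADD45A and higher MDM2 on 2 of its 3 probes (2.17-fold and 2.30-fold) than mock-treated CEM PA. ATR was higher on both probes, ATM was higher on 2 probes, 1 of them near background in CEM PA, and not on the third, and CHEK1, CHEK2 and WEE1 did not pass. Of 14 probes 7 had an adjusted p under 0.05 (6 higher, 1 lower), against 47.6% of all tested probes (24.9% higher, 22.7% lower), and 5 passed the double threshold (4 higher, 1 lower), against 35.6% (18.4% higher, 17.2% lower). An unadjusted p under 0.05 was reached by 7, against 54.5%. Taken in either direction these shares are close to the background. The groups did not overlap for 6 of 14 probes, against 48.8%. The median log2 fold change was 0.25 for the 14 and 0.04 for all.

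GADD45A read 9.27, 8.62, 8.64 and 8.75 in mock-treated CEM RES and 10.68, 10.59 and 10.00 in mock-treated CEM PA. With FK866 it read 9.07, 8.75, 8.74 and 8.90 in CEM RES and 10.66 and 10.44 in CEM PA. All 8 CEM RES arrays lay below all 5 CEM PA arrays. The log2 fold change between lines was -1.60 in mock (SE 0.21, 95% interval -2.05 to -1.16, limma adjusted p = 7.89e-05) and -1.69 with FK866 (SE 0.23, adjusted p = 0.000241). By group mean the CEM PA groups were highest (10.55 and 10.42) and the CEM RES groups lowest (8.86 and 8.82), and within each line the neighbours did not differ beyond the spread.

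MDM2 A_33_P3361707 read 9.10, 9.16, 8.61 and 8.84 in mock-treated CEM RES, all above the 7.44, 8.07 and 7.93 of mock-treated CEM PA. A_23_P502750 read 5.66, 6.54, 5.27 and 5.79 against 4.43, 4.59 and 4.80, again without overlap. A_24_P925664 overlapped, with 8.44, 8.63, 7.67 and 7.87 against 8.22, 7.78 and 7.67. The log2 fold changes were 1.12 (SE 0.19, adjusted p = 0.000634), 1.20 (SE 0.29, adjusted p = 0.00493) and 0.26 (adjusted p = 0.402). With normexp the second was 0.48 (adjusted p = 0.0159). With FK866 in both lines the same probes differed by 0.17, -0.02 and 0.63 (adjusted p = 0.577, 0.973 and 0.0954), and the last passed with 75th percentile scaling (0.73, adjusted p = 0.0493) or array weights (0.66, adjusted p = 0.0309). The mock and FK866 comparisons between lines share no array, but each shares arrays with the comparison of treatments within a line. Over the 13 arrays A_33_P3361707 and A_23_P502750 had a correlation of 0.78, and the distal A_24_P925664 had 0.37 and 0.46 with them, as a description of 13 arrays that share lines and sessions.

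The ATM probes did not give the same picture of the lines. A_33_P3218410 read 5.76, 6.20, 5.44 and 5.79 in mock-treated CEM RES and 2.30, 3.15 and 4.18 in mock-treated CEM PA, where it was well above background on 1 of 3 arrays. It was tested because it cleared background in CEM RES, the line where it is high, so its adjusted p (0.000337) had that choice behind it. The fitted log2 fold change of 2.59 (0.61 with normexp) depends on the dim CEM PA signals. With those raised to the dimmest signal well above background on each array the difference was 3.79-fold. This is no lower bound, because CEM PA mock replicate 2 read above that floor (3.15 against 2.80) and still did not clear background. A_23_P35916, at the far end of the mRNA, read 6.11, 6.82, 6.43 and 6.54 against 5.29, 5.16 and 5.91, a log2 fold change of 1.02 (adjusted p = 0.0193, and 0.51 with normexp). A_33_P3589722, which starts 8798 bases nearer the 5′ end of the same mRNA, read 10.99, 10.47, 10.47 and 10.79 against 10.66, 11.13 and 11.48. Here the groups overlapped and the log2 fold change was -0.41 (adjusted p = 0.191). Over the 13 arrays the correlation was 0.85 between A_33_P3218410 and A_23_P35916, -0.04 between A_23_P35916 and A_33_P3589722, and -0.25 between the remaining pair. The call for A_23_P35916 was lost without CEM PA mock replicate 1 or 2 (adjusted p = 0.0627 and 0.0770). With FK866 A_33_P3218410, above background on 1 of 2 CEM PA arrays and 4 of 4 CEM RES arrays, had a fitted log2 difference of 2.06 (0.61 with normexp, and short of the threshold at 1.77 without CEM PA FK866 replicate 2, adjusted p = 0.0593), and the other ATM probes did not pass (0.48 and -0.28).

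ATR A_23_P136058 read 11.63, 12.18, 12.01 and 11.69 in mock-treated CEM RES, above the 11.38, 11.49 and 11.52 of CEM PA, with a log2 fold change of 0.41 (adjusted p = 0.0398). A_33_P3362498 read 9.17, 9.39, 9.72 and 8.91 against 9.03, 8.38 and 8.37, with overlap and a log2 fold change of 0.71 (adjusted p = 0.0305). Neither mock call was firm. The first was lost under 14 of 24 alternatives and the second under 7 of 23, among them without CEM PA mock replicate 2 (adjusted p = 0.0771 and 0.108), CEM PA mock replicate 3 (0.0646 and 0.109), CEM RES mock replicate 2 (0.0993 and 0.0606) or CEM RES mock replicate 3 (0.0888 and 0.0813), and for the first also without CEM PA mock replicate 1 (0.109).

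With FK866 in both lines ATR was higher in CEM RES on all arrays, which ranged from 11.91 to 12.11 against 11.07 and 11.19 on A_23_P136058. The difference was 0.89 on the log2 scale (SE 0.17, adjusted p = 0.00199), and for A_33_P3362498 it was 0.85 (adjusted p = 0.0300), a call lost without either CEM PA FK866 array (0.0843 and 0.184) and without CEM RES FK866 replicate 2 or 3 (0.0667 and 0.0680). By group mean of A_23_P136058 the order was CEM RES with FK866 (12.02), CEM RES mock (11.88), CEM PA mock (11.46) and CEM PA with FK866 (11.13), where treatments within a line did not pass.

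In that FK866 comparison 7 of 14 probes had an adjusted p under 0.05 (4 higher, 3 lower), against 36% of all tested probes (18% each way), and 6 passed the double threshold (4 higher, 2 lower), against 30.7% (15.2% higher, 15.5% lower). An unadjusted p under 0.05 was reached by 8, against 45.7%, and the groups did not overlap for 10, against 57.8%. CHEK1 was lower in CEM RES by a log2 fold change of -0.78 (adjusted p = 0.0027) and CHEK2 A_33_P3386760 by -0.67 (adjusted p = 0.0156), the latter lost without either CEM PA FK866 array (0.105 and 0.0719). For CHEK1, the arrays of CEM PA with FK866 lay above the other 11. GADD45G A_24_P120934, counted among the 4 higher, was well above background on 1 of 4 CEM RES arrays and 0 of 2 CEM PA arrays, so no size or direction is given for it, and it did not pass with normexp (adjusted p = 0.447) or without CEM PA FK866 replicate 1 (0.0746). This comparison shares its arrays of CEM PA with FK866 with the treatment comparison in CEM PA, so it is not a second reading of the CHEK1 rise. In mock the log2 fold changes of CHEK1, WEE1 and the CHEK2 probes lay between -0.17 and 0.11.

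**Figure D4:**
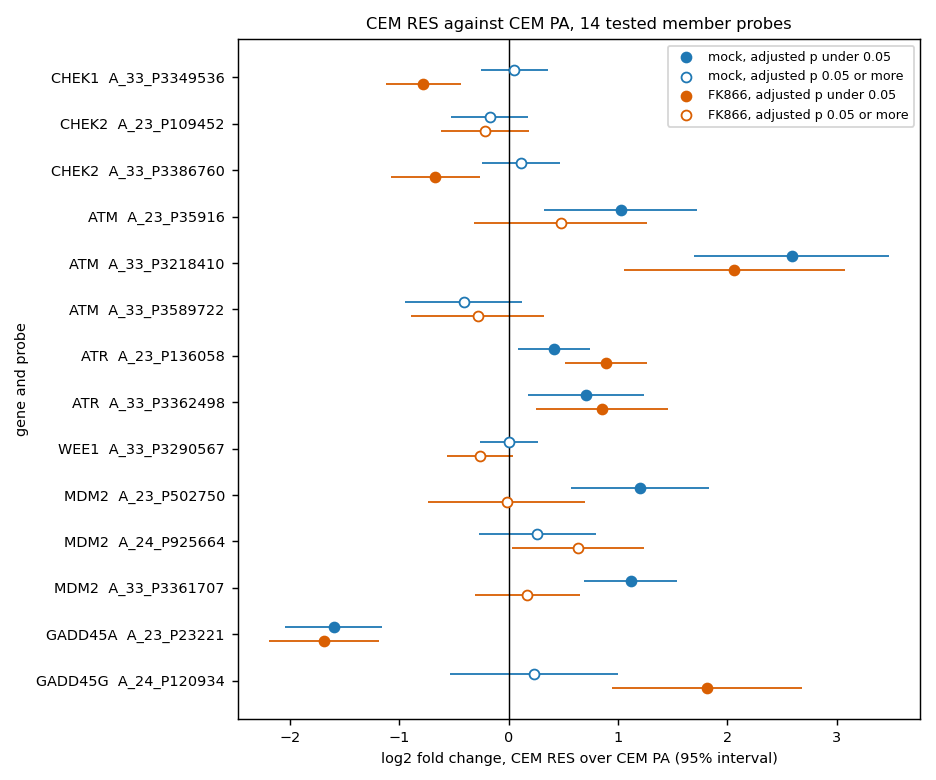
Log2 fold change of CEM RES over CEM PA (horizontal axis, 95% interval) for the 14 tested probes in mock (blue) and with FK866 (orange), filled where the adjusted p was under 0.05. GADD45A lies near -1.6 in both, MDM2 A_33_P3361707 and A_23_P502750 lie above 1 in mock and near 0 with FK866, and ATM A_33_P3218410, above background on 1 array of each CEM PA group, lies above 2 in both.

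The wider pathway was read from gene lists, each gene by its brightest tested probe, with some genes (CCNB1, PLK3, GADD45B) in more than 1 list and the members left out. In checkpoint signalling (among them sensors, mediators, CDC25 phosphatases, CDC7 and CDK1), 0 of 32 genes passed either threshold with FK866 in CEM PA or in CEM RES. In CEM PA 1 higher and 1 lower passed the adjustment with the replicate block, and 2 lower with array weights. The largest absolute changes in CEM PA were 0.84 (HUS1), -0.71 (CDC7) and 0.66 (RNF168). Between mock-treated lines 10 of 32 were higher in CEM RES and 3 lower at an adjusted p under 0.05, against 24.6% and 22.8% of all 17594 genes, with a list median of 0.08 against 0.04. MRE11A, a nuclease of the break sensor complex, was higher by 1.19 (adjusted p = 0.000255), DBF4, the activator of CDC7, by 1.11 (adjusted p = 0.0112) and RAD1, part of the checkpoint clamp, by 1.09 (adjusted p = 0.00178). H2AFX, the histone marked at breaks, was lower by -1.24 (adjusted p = 0.000747), PLK3 by -0.75 (adjusted p = 0.0129) and ATRIP, the partner of ATR, by -0.42 (adjusted p = 0.0263). With all probes of a gene averaged, DBF4 and RAD1 no longer passed (0.22 and 0.48, adjusted p = 0.384 and 0.0778), PLK3 did not without CEM PA mock replicate 2 (-0.57, adjusted p = 0.0668), and ATRIP was lost in 5 of 25 alternatives.

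With FK866 in both lines 6 of 32 checkpoint genes were higher in CEM RES and 2 lower, against 18.5% and 16.8% of all genes. TOPBP1, which activates ATR, was higher by 1.21 (adjusted p = 0.000118), MRE11A by 0.96 and CDC7 by 0.91, while PLK3 differed by -1.42 (adjusted p = 0.00101) and H2AFX by -1.31 (adjusted p = 0.00188). Without CEM PA FK866 replicate 1, 1 gene in place of 6 was higher, and MRE11A and CDC7 no longer passed (adjusted p = 0.0587 and 0.0808).

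Of 32 regulators and targets of p53, 30 were tested. With FK866 in CEM PA 1 was higher and 0 lower at an adjusted p under 0.05, against 0.568% and 0.415% of all genes (1 and 1 with the replicate block). It was MDM4, the partner of MDM2 that holds p53 inactive, with 11.68 ± 0.10 (SD, n = 2) against 10.37 ± 0.42 (SD, n = 3), a difference of 1.30 on the log2 scale (SE 0.25, limma adjusted p = 0.0262). The MDM4 call was lost without either FK866 array (log2 fold change 1.38 and 1.23) and without mock replicate 1 or 2 (limma adjusted p = 0.0692 and 0.0882). It was also lost with its probes averaged (0.95, adjusted p = 0.125), no filter on dim probes (0.0522) or only the groups compared (0.149). With slide as a block, 1 array against 1, the MDM4 change was 1.51 and did not pass. In CEM RES MDM4 changed by 0.002, and the difference between responses was -1.30 (adjusted p = 0.112). The list median in CEM PA was 0.000, with -0.02 for all genes, and in CEM RES 0 of 30 passed either threshold. At an adjusted p under 0.05 the CEM PA counts reached 2 higher with normexp and 2 lower with array weights.

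Between mock-treated lines 11 of 30 p53 genes were lower in CEM RES and 3 higher, against 22.8% and 24.6% of all genes, with a list median of -0.28 against 0.04. TP53INP1, a stress-induced partner of p53, was 6.59 ± 0.71 (SD, n = 4) in CEM RES and 10.22 ± 0.18 (SD, n = 3) in CEM PA, a log2 fold change of -3.63 (adjusted p = 4.37e-05). BAX, a pore-forming death effector, was 9.07 ± 0.32 (SD, n = 4) against 12.16 ± 0.41 (SD, n = 3), a log2 fold change of -3.09 (adjusted p = 1.77e-06). RRM2B, the p53-induced ribonucleotide reductase subunit, differed by -1.51 (adjusted p = 0.000726), though by -0.35 with its probes averaged (adjusted p = 0.309). With probes averaged TP53INP1 differed by -2.14 and BAX by -1.92, and both still passed. Higher in CEM RES were PMAIP1, which encodes the BH3-only protein NOXA (1.32, adjusted p = 0.000207), TRIAP1 (1.00, adjusted p = 0.000704) and TP53I3 (0.63, adjusted p = 0.0382), the last lost in 9 of 25 alternatives.

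With FK866 in both lines the p53 list had 10 of 30 genes lower and 4 higher in CEM RES, against 16.8% and 18.5% of all genes, with a median of -0.35 against 0.09. BAX differed by -2.90 (adjusted p = 1.62e-05), TP53INP1 by -2.78 (adjusted p = 0.00107) and TNFRSF10A, a death receptor, by -1.59 (adjusted p = 0.0337). TNFRSF10A was above background on all arrays of CEM PA with FK866 alone, the group where it was highest and through which it was tested, and on 2 of 4 CEM RES arrays, and it was lost in 10 of 24 alternatives (-0.31 with normexp). C12orf5, the fructose bisphosphatase TIGAR, was higher by 0.94 (adjusted p = 0.00532), TRIAP1 by 0.87 (adjusted p = 0.00539) and PMAIP1 by 0.76 (adjusted p = 0.0185). Without CEM PA FK866 replicate 1, 0 genes of the list were called higher.

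**Figure D5:**
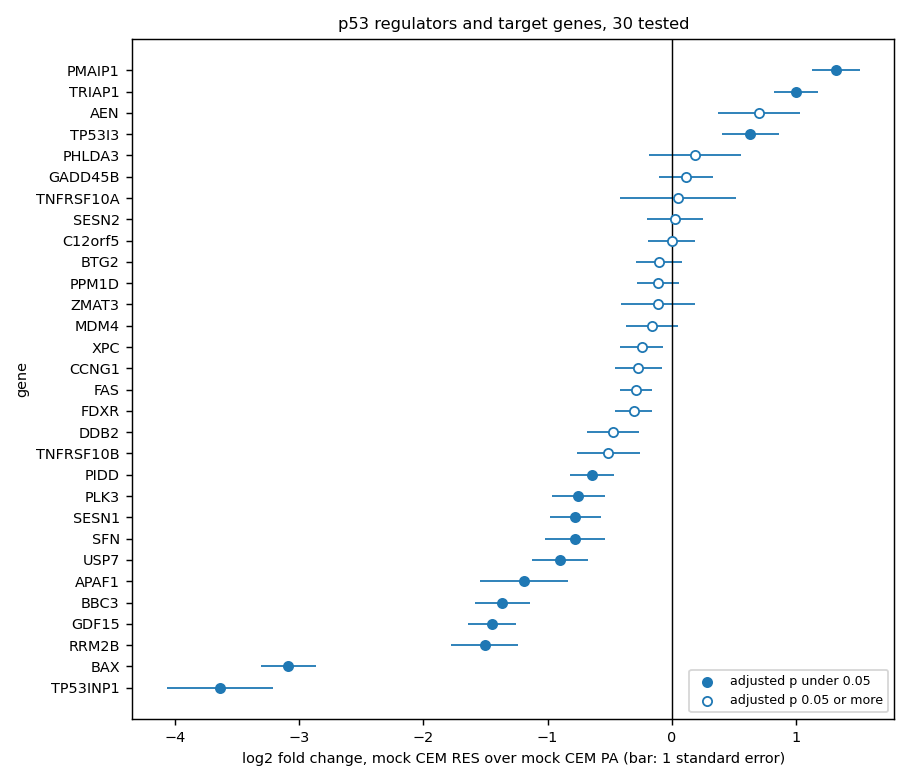
Log2 fold change of mock-treated CEM RES over CEM PA (horizontal axis, 1 standard error) for 30 p53 regulators and targets, filled where the adjusted p was under 0.05. TP53INP1 (-3.63) and BAX (-3.09) are lowest and PMAIP1 (1.32) is highest.

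CHEK1 and many other checkpoint transcripts are known to follow the cell cycle, so proliferation genes were read beside them. Of 21 proliferation genes 0 passed either threshold with FK866 in CEM PA or CEM RES (1 higher and 1 lower passed the adjustment in CEM PA with array weights). Between mock-treated lines 5 of 21 were higher and 5 lower in CEM RES, close to the 24.6% and 22.8% of all genes, led by MKI67 (3.38, adjusted p = 9.69e-05), CCNA2 (1.00, adjusted p = 0.000486) and CCNB1 (0.60, adjusted p = 0.00309) on one side and CCNE1 (-0.87, adjusted p = 0.00444), MCM3 (-0.64, adjusted p = 0.00207) and E2F1 (-0.57, adjusted p = 0.0123) on the other. With FK866 4 were higher (18.5% of all genes), led by MKI67 (2.49), BUB1B (0.98) and BUB1 (0.76), and 4 lower (16.8% of all genes), led by CCNE1 (-0.94), E2F1 (-0.79) and MCM3 (-0.54). Without CEM PA FK866 replicate 1 these counts were 1 and 1. When probes were averaged CCNB1 turned to -0.02 in mock and -0.07 with FK866, and MKI67 was 2.09 and 1.49. The part of these genes in the member differences was not tested.

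Among GADD45 partners and relatives 0 of 6 passed with FK866 in either line. In mock-treated CEM RES 3 of 6 were higher, MAP3K4, a kinase that GADD45 proteins bind (2.29, adjusted p = 0.0176), GADD45GIP1 (1.27, adjusted p = 0.000109) and CCNB1, and with FK866 also 3, GADD45GIP1 (0.89, adjusted p = 0.00377), GADD45B (0.70, adjusted p = 0.0427) and CCNB1 (0.48, adjusted p = 0.0295). MAP3K4 lost its call without CEM PA mock replicate 1 (1.18, adjusted p = 0.0509) and GADD45B in 11 of 25 alternatives, and the mock arrays of CEM PA had an SD of 1.93 for MAP3K4.

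The genes whose log2 signal over the 13 arrays ran closest to a member are given as a description, since arrays of a line and session move together. CHEK1 had Pearson correlations of 0.97 with C2orf49, 0.95 with RMND5A and 0.94 with TAF1D. GADD45A had 0.99 with AACSP1 and NLRP1 and 0.99 with AKR1C3, and ATR had 0.97 with KLHL7 and 0.97 with C10orf137. MDM2 was closest to CDV3 (0.95), GTF2A2 (0.94) and ENST00000439905 (0.94), and ATM A_33_P3589722 to BC029571 (0.95), PNRC1 (0.93) and SPNS2 (0.93). The remaining members had lower values, with COL16A1 (0.91), IL15RA (0.90) and NACA2 (0.89) for CHEK2, GNAQ (0.89), TMED7-TICAM2 (0.88) and PPP1R8 (0.87) for WEE1, and SEPHS2 (0.93), CCDC42B (0.90) and RHBDD1 (0.90) for GADD45G.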

How the data were processed

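Per the labels, the authors hybridized Cy3-labelled total RNA to Agilent 4x44K arrays and read them with Agilent Feature Extraction 10.7.7.1. For each array the authors deposited the spot intensity, background-corrected by that software and not normalized between arrays, and a quantile-normalized log2 table, used here as an alternative. The methods give quantile normalization and limma.

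Here outlier and control spots were left out, log2 intensities were quantile normalized over the 13 arrays and spots averaged per probe, and 22751 of 34127 probes (18886 above background on all arrays) were tested in 1 group-means model with limma 3.58.1 in R 4.3.3, two-sided. The number of arrays limits the precision. Python 3.11.15, numpy 2.4.6, pandas 2.3.3 and matplotlib 3.10.9 read files and drew figures. The fit was tested on simulated data. Probe positions are those of the design on hg19, and exon or UTR annotation of that build was not used here. For the GADD45G and ATM differences at that floor, signals of the dimmer group were raised to the lowest one that the software placed above background on that array.

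The members and lists were chosen with earlier results of these data known. Named are all members with every probe, up to 3 largest rises and falls per list and comparison past an adjusted p of 0.05 (or else the largest changes), and the 3 genes most like each member, of which 1 is not reported here. Equal replicate numbers deviated together (correlations of 0.35 to 0.46 for CEM PA, 0.20 to 0.47 for CEM RES), so a replicate block was also fitted. In CEM PA equal replicate numbers also shared a scan session, so pairing and session cannot be told apart there. Replicate arrays correlated from 0.977 to 0.991 across probes. Alternatives were 75th percentile scaling, normexp (offset 50), no filter, a filter on all 13 arrays, outlier spots kept, 1 probe per gene, the mean of a gene's probes, the deposited table, only the groups compared, slide, session or replicate as a block, array weights, a variance trend and each array left out.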

Additional observations from a re-analysis of the deposited data

How the results depend on the processing

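Of 1696 recomputed member fold changes, 1638 kept their side of an adjusted p of 0.05, 48 fell short of it, 10 newly passed and 0 reversed. Of 1026 for list genes, 69 fell short and 2 reversed, both CCNB1 with its probes averaged (-0.019 in mock, -0.068 with FK866). GADD45A and MDM2 A_33_P3361707 and A_23_P502750 passed in every setting run for mock CEM RES against mock CEM PA, though MDM2 A_23_P502750 shrank from 1.20 to 0.48 with normexp.

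For FK866 in CEM PA, 2 probes passed the adjustment. This became 1 with 75th percentile scaling, normexp, no filter or a filter on all 13 arrays, 0 with gene means, only the groups compared or slide as a block, and 4 with the replicate block or array weights, and it ranged from 0 to 2 with 1 array left out (0 without either FK866 array or mock replicate 2, 1 without mock replicate 1 or 3). The 3 probes past the double threshold became 1 with normexp and 5 with slide as a block (3 to 4 with 1 array left out). In CEM RES 0 passed the adjustment with any array left out, and from 0 to 1 the double threshold. Between mock-treated lines the 7 adjusted calls became 3 with the brightest probe and 4 with gene means, and 4 to 7 with 1 array left out (4 without CEM PA mock replicate 2), and the 5 double-threshold calls became 2 with normexp, 2 with the brightest probe and 3 with gene means (5 to 6). With FK866 the 7 adjusted calls became 4 with the brightest probe or gene means (4 to 7, with 4 without either CEM PA FK866 array), and the 6 double-threshold calls 3 with normexp (4 to 7). For the difference between responses the 0 adjusted calls became 1 with normexp and 2 with the replicate block, and the 5 double-threshold calls 2 with normexp, 3 with the brightest probe and 2 with gene means (3 to 5, with 3 without CEM RES FK866 replicate 4). The brightest-probe and gene-mean settings hold 8 members in place of 14 probes. The cause of the other shifts was not tested.

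The replicate block changed no other call among the members, and for the difference between responses it gave 1 lower checkpoint gene and 1 lower p53 gene in place of 0. Where 1 array remained in a group its spread was taken from the remaining groups. With slide as a block the CEM PA changes rest on slide 1, the only slide with both treatments, 1 array against 1. With 2 arrays of FK866-treated CEM PA, the 95% interval of the log2 fold change ran from -0.10 to 0.54 for WEE1 and from -0.46 to 1.21 for ATM A_23_P35916, which limits what a missed threshold there can show. CDKN1A and GADD45G lie too close to background for a level.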
